A study of Mus musculus with 12 samples.

Results

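Replication-dependent histone genes were described in mouse embryonic stem cells that lacked or regained Dppa2 and Dppa4, on Affymetrix arrays. The genes were the single-symbol probe sets of the array annotation whose symbol starts with Hist1h, Hist2h, Hist3h, Hist4h, H2ac or H2bc, or with H3c or H4c followed by a digit, with 1 probe set per gene, that of the highest mean over all arrays. This took 21 of the 22180 genes with such a probe set: 6 H2A, 8 H2B and 7 H4 genes, 16 of them in the cluster on chromosome 13 and 5 in the cluster on chromosome 3. No H3 gene had a probe set of its own. Linker (H1) genes were not taken, because the annotation gives them newer symbols such as H1f1 in place of names that start with Hist1h. A further 37 probe sets carried several symbols with at least 1 histone gene among them and are given apart. The 12 arrays held 4 groups of 3 samples, all of cells with a tdTomato reporter driven by MERVL, an endogenous retrovirus active in 2-cell embryos. The groups were Dppa2/4 knockout cells given Dppa2 and Dppa4 as SUMO-deficient GFP fusions (KO+Mut), knockout cells given the wild-type GFP fusions (KO+WT), knockout cells (KO) and parental reporter cells. SUMO is a small protein that is joined to other proteins after translation, and the SUMO deficiency is stated in the series' design text. The add-back cells were transfected with plasmids by lipofectamine and sorted by flow cytometry for GFP. No such step is stated for KO or parental cells, so presence of the proteins and these steps cannot be told apart, except between the add-backs. The labels do not say whether the KO cells were 1 clone or what separated the biological replicates, so p-values measure only the spread between these samples.

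Replication-dependent histone genes supply the H2A, H2B, H3 and H4 proteins that package newly copied DNA. They lie in clusters, lack introns as a rule, are transcribed mainly in S phase, and give mRNAs that end in a stem-loop in place of a poly(A) tail. H2A and H2B genes often stand head to head, so that 1 stretch of DNA between their starts serves both. The chromosome 13 members H2ac1 and H2bc1 have the older names Th2a and Th2b. Their proteins are the testis forms of H2A and H2B, which take the place of the usual forms in male germ cells and are also known from mouse oocytes. Many H4 genes, H4c9 and H4c12 among them, encode 1 and the same protein.

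The DNA upstream of 3 members is shown because these members carry the results: H2ac1, whose upstream stretch is shared with H2bc1, H4c9, and H4c12 as an H4 gene with a strong and even signal. The sequences are RefSeq's, assembly GRCm38.p6, and each holds the 250 bases before the annotated start, read 5′ to 3′ on the gene's own strand. Capitals mark every match, on either strand, to the TATA box letters TATAAA, to the CCAAT box and to the octamer ATTTGCAT. The stretch before H2ac1 lies at chr13:23934187-23934436 on the plus strand, that before H4c9 at chr13:22041363-22041612 on the minus strand and that before H4c12 at chr13:21750554-21750803 on the minus strand.
H2ac1 upstream: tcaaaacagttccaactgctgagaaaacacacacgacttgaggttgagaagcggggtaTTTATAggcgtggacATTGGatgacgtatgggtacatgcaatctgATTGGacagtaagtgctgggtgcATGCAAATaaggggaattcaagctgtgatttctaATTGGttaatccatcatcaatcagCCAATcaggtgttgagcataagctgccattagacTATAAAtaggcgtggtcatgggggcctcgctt
H4c9 upstream: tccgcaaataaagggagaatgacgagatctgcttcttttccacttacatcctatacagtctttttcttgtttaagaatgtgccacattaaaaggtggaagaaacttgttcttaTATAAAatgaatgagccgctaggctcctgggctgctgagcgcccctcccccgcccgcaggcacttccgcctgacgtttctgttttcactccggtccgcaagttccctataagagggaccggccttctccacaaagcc
H4c12 upstream: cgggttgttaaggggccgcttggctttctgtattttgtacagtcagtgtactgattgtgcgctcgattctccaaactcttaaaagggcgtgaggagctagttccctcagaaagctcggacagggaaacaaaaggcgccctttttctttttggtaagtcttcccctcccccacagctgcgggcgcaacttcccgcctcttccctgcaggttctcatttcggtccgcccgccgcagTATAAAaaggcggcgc
The starts of H2bc1 and H2ac1 are 281 bases apart and point away from each other, and their 300-base promoter windows (250 bases before and 50 after the start) share 220 bases. On the strand of each gene, TATAAA begins at position -32 from the start of H2ac1 and at position -94 from that of H2bc1. The octamer of this stretch begins at position -164 on the strand of H2bc1. Among the members with a RefSeq window, H2ac12 and H2bc12 were the other head-to-head pair, with 178 bases between their starts. Members without a window could not be paired in this way, among them H2bc21, which lies next to H2ac20 on chromosome 3. RefSeq windows were found for 19 of the 21 members. A CCAAT match was present in all 6 H2A and all 7 H2B windows but in 1 of 6 H4 windows, against 37.4% of the 32851 windows in the table. The octamer was present in 3 of 6 H2A, 5 of 7 H2B and 0 of 6 H4 windows, against 1.74% of all windows. The octamers of H2ac1 and H2bc1 are the same site, as are those of H2ac12 and H2bc12. The windows of these pairs share 220 and 277 bases, so a match of any motif in the shared part counts for both genes. TATAAA was present in 5 of 6 H2A, 4 of 7 H2B and 4 of 6 H4 windows, against 13.6% of all windows. These matches lay at positions from -212 (H2bc22) to 41 (H4c1), that of H4c9 at -137. The counts are therefore of letters and not of TATA boxes. Matches of different motifs did not overlap in any member's window (0 overlaps), and a match of letters is not a measured binding site.

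The data behind the values were log2 signals normalized by the authors. Array medians lay between 3.73 and 3.88 and lower quartiles between 2.36 and 2.47, and r across genes was 0.976 to 0.994 over the 66 array pairs. The targeted gene Dppa2 averaged 11.20 in KO+Mut, 11.08 in KO+WT, 8.48 in KO and 9.77 in parental cells, and Dppa4 averaged 10.54, 10.39, 7.62 and 8.46 in the same order. Dppa2 fell in KO against parental cells (limma adjusted p = 0.0259), while for Dppa4 the KO arrays lay below all parental arrays without passing (limma adjusted p = 0.102). In the add-backs both genes lay above the parental level. Dppa2 was higher by 1.42 in KO+Mut and by 1.31 in KO+WT (limma adjusted p = 0.00529 and 0.0154). Dppa4 was higher by 2.08 in KO+Mut and by 1.93 in KO+WT (limma adjusted p = 9.05e-05 and 0.000253). Neither gene was near the lower end of the scale in KO cells, and where its probes lie relative to the deleted parts is not given in the labels. All 12 embryonic stem cell markers were read, and none of them differed past the threshold between any groups (limma). Nanog lay between 10.25 and 10.76 and Zfp42 between 10.34 and 10.73 over the 12 arrays. Pou5f1 lay lower, between 6.60 and 6.87, and Dppa5a between 3.82 and 4.39, close to the array medians. Sox2 was 9.35 to 9.5 in KO+Mut against 9.68 to 9.88 in KO (limma adjusted p = 0.135). Fgf4 was 9.09 to 9.22 against 9.46 to 9.73 (limma adjusted p = 0.21). Only 3 of the 12 in KO+Mut and 2 in KO+WT had a positive difference from KO. At an unadjusted p below 0.05 there were 4 of 12 in each add-back against parental cells. The shares of all genes there were 11.5% in KO+Mut and 10.7% in KO+WT. Precision is set by the 3 arrays a group: the 95% interval of a log2 difference reached 0.344 to each side in the median gene, and 0.411 in the median of the 18 members other than H2ac1, H2bc1 and H4c9.

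H2ac1, the testis H2A gene, had the largest difference of the 21 members in each of the 3 comparisons that involve KO cells. Its signal was 8.89, 8.87 and 9.36 on the KO+Mut arrays, 8.0, 8.68 and 9.12 on the KO+WT arrays, 4.55, 4.97 and 6.35 on the KO arrays and 7.11, 7.15 and 8.96 on the parental arrays (log2, replicates 1, 2 and 3). Every add-back array was above every KO array, and every KO array was below every parental array. The rise with wild-type add-back over KO was 3.31 (log2, SE 0.51, limma adjusted p = 0.0075, n = 3 per group), which is 9.94-fold. With the SUMO-deficient proteins the rise over KO was 3.75 (SE 0.51, limma adjusted p = 0.00219), or 13.5-fold. Both calls were kept whichever of the 6 arrays was left out, with adjusted p up to 0.0466 and 0.0158. KO cells differed from parental cells by -2.45 (SE 0.51), a 5.46-fold lower signal, which did not pass the threshold (limma adjusted p = 0.0931). With the replicate number as a block, which takes the numbers to pair the arrays, the same difference passed (limma adjusted p = 0.004). It also passed without KO replicate 3 (limma adjusted p = 0.0448). Without parental replicate 3, the highest of its group, it was -1.84 (limma adjusted p = 0.253), and the adjusted p was at most 0.353 over the fits without 1 array. Endoderm markers also differed between these groups: the mean of 10 such genes was 5.84 to 6.24 in KO against 6.41 to 7.07 in parental cells. All 10 differences were negative (median -0.72), with 0 past the threshold (limma; 8 of 10 at an unadjusted p below 0.05, against 6.94% of all genes). Their mean was 5.86 to 6.03 in KO+Mut and 6.02 to 6.15 in KO+WT, and the laminin genes Lamb1 and Lama1 fell in both add-backs against parental cells. Their part in the H2ac1 values was not tested. In a bulk sample, fewer cells that transcribe a gene and less RNA per cell cannot be told apart.

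H2bc1, the testis H2B gene that faces H2ac1, had the second largest difference in those 3 comparisons. Its difference was the largest between KO+Mut and KO+WT and between KO+Mut and parental cells. None of these passed in the fit of group means without block or weights. Its signal was 3.06, 4.30 and 5.22 in KO+Mut, 2.05, 3.62 and 5.15 in KO+WT, 1.75, 1.82 and 2.12 in KO and 2.23, 2.61 and 3.39 in parental cells (log2). The KO arrays lay below all parental and all KO+Mut arrays, whereas KO+WT replicate 1 lay within the KO range. The difference from KO was 2.29 with mutant add-back (SE 0.65, limma adjusted p = 0.135) and 1.71 with wild-type add-back (SE 0.65, limma adjusted p = 0.314). With array weights the mutant add-back difference passed (limma adjusted p = 0.0427). The wild-type add-back difference was 2.49 without KO+WT replicate 1 and 0.94 without KO+WT replicate 3. KO differed from parental cells by -0.85 (SE 0.65, limma adjusted p = 0.932). All 3 KO values lay below the lower quartile of every array. In each of the 4 groups the highest array for H2ac1 was also the highest for H2bc1, and it carried the number 3. The 2C-like marker mean was highest on number 3 in KO+Mut, KO+WT and parental cells and on number 2 in KO cells.

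**Figure D1:**
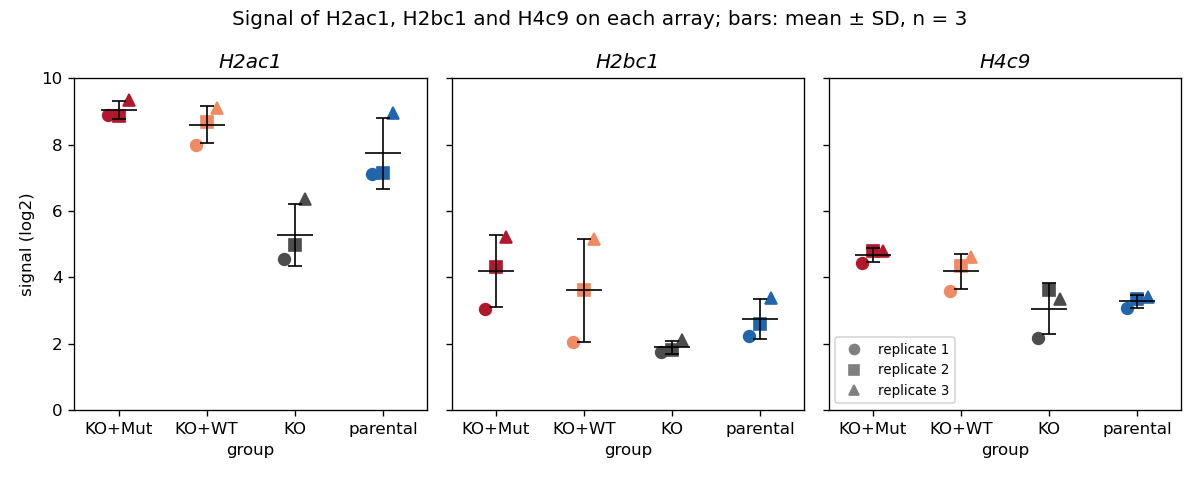
Signal (log2, y axis) of H2ac1, H2bc1 and H4c9 on each of the 12 arrays, by group (x axis). Points are arrays, with circle, square and triangle for replicates 1, 2 and 3, and bars are the mean ± SD of 3 arrays. H2ac1 lay between 4.55 and 6.35 in KO cells and above 7 in all other groups, and H4c9 was highest in KO+Mut.

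H4c9, a histone H4 gene of the chromosome 13 cluster, rose with mutant add-back. Its signal was 4.44, 4.79 and 4.79 in KO+Mut, 3.58, 4.33 and 4.63 in KO+WT, 2.18, 3.63 and 3.35 in KO and 3.07, 3.34 and 3.42 in parental cells (log2). All KO+Mut arrays were above all KO and all parental arrays, and KO+WT replicate 1 overlapped the KO range. The rise over KO was 1.62 with mutant add-back (SE 0.33, limma adjusted p = 0.0306), or 3.07-fold. The KO arrays lay below every array median, and KO replicate 1 below every lower quartile, and no detection calls were used, so the size of the fold rests on a signal that may be at background. That call was kept without KO replicate 2, which gave an adjusted p of 0.0237, and lost without any other of the 6 arrays. The adjusted p was 0.0641 and 0.0571 without KO replicates 1 and 3, and 0.0597, 0.133 and 0.0946 without KO+Mut replicates 1, 2 and 3. With wild-type add-back the difference from KO was 1.13 (SE 0.33, limma adjusted p = 0.17). KO and parental cells differed by -0.22 (SE 0.33, limma adjusted p = 0.992). The other H4 genes did not move with it: against KO they differed by -0.20 to 0.06 in KO+Mut, none past the threshold.

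Counted over all members, KO cells had 0 of 21 genes past the threshold against parental cells, where 0.239% of all 22180 genes passed, 0.0361% higher and 0.203% lower (limma; 1 of 21, H2ac1, at an unadjusted p below 0.05, against 6.94% of all genes, and 1 with the replicate block). Wild-type add-back against KO had 1 higher member (H2ac1) and 0 lower ones, against 0.73% of all genes higher and 0.0992% lower, 0.83% in all (limma; 4 of 21 at an unadjusted p below 0.05, all higher, against 12% of all genes). Mutant add-back against KO had 2 higher members (H2ac1 and H4c9) and 0 lower ones, against 1.12% of all genes higher and 0.153% lower, 1.27% in all (limma; 3 of 21 at an unadjusted p below 0.05, all higher, against 12.5% of all genes). The median difference over the 21 members was -0.02 in KO against parental cells, -0.06 in KO+WT against KO and 0.03 in KO+Mut against KO, beside medians of 0.00, 0.00 and -0.01 over all genes. Groups did not overlap for 3, 2 and 4 of 21 members in these comparisons, against 12.9%, 16% and 18% of all genes.

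**Figure D2:**
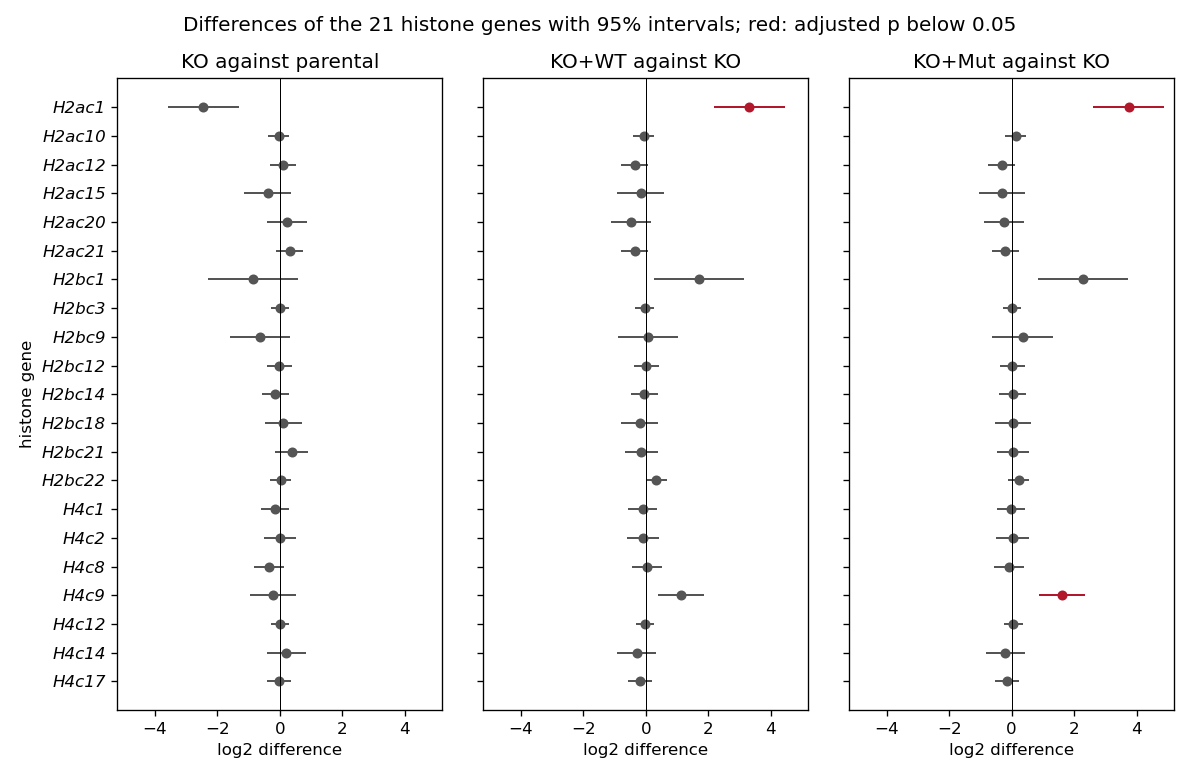
Log2 difference (x axis) of the 21 histone genes (rows, by class) in 3 comparisons, with points for the difference and lines for its 95% interval from limma. H2ac1 in both add-backs and H4c9 in KO+Mut are drawn in red (adjusted p below 0.05), and most of the other intervals include 0.

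The 18 members other than H2ac1, H2bc1 and H4c9, a split made after the values were seen, differed little. In KO against parental cells they lay between -0.64 (H2bc9) and 0.37 (H2bc21). In KO+WT against KO they lay between -0.48 (H2ac20) and 0.33 (H2bc22), and in KO+Mut against KO between -0.32 (H2ac12) and 0.35 (H2bc9). None passed the threshold in any of the 6 comparisons (limma). The 5 members on chromosome 3 were among them, with differences of 0.11 to 0.37 in KO against parental cells, of -0.25 to 0.04 in KO+Mut against KO and of -0.48 to -0.14 in KO+WT against KO, comparisons that share the KO arrays.

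Of the usual H2A genes, H2ac10 had 10.24, 10.38 and 10.32 in KO+Mut, 9.85, 10.40 and 10.12 in KO+WT, 10.06, 10.25 and 10.24 in KO and 10.08, 10.34 and 10.24 in parental cells (log2). Its groups overlapped, and its mutant add-back differed from KO by 0.13 (SE 0.14). H2ac21 and H2ac20, both on chromosome 3, ranged from 7.56 to 8.35 and from 6.73 to 8.12 over the 12 arrays. Their differences were 0.32 and 0.23 in KO against parental cells, -0.35 and -0.48 in KO+WT against KO and -0.20 and -0.25 in KO+Mut against KO, with limma adjusted p of 0.489 or more. A second probe set of H2ac21 differed by 0.24, -0.25 and -0.14 in the same comparisons. The dim H2ac12 and H2ac15 stayed between 1.01 and 1.80 and between 2.17 and 4.11.

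Of the H2B genes, H2bc12 had a signal of 8.74 to 9.35 over the 12 arrays and H2bc3 one of 7.99 to 8.37. H2bc12 stands head to head with H2ac12 as H2bc1 does with H2ac1. Its mean signal was 9.01 ± 0.20 in KO+Mut, 9.01 ± 0.31 in KO+WT, 8.99 ± 0.13 in KO and 9.0 ± 0.22 for the parental arrays (SD, n = 3 in each group). H2bc22 had 2.66, 2.75 and 2.74 in KO+Mut and 2.77, 2.66 and 3.04 in KO+WT, against 2.36, 2.62 and 2.5 in KO and 2.22, 2.52 and 2.65 in parental cells. Both add-backs lay above both other groups, by 0.33 and 0.23 relative to KO in KO+WT and KO+Mut, without passing (limma adjusted p = 0.368 and 0.56). H2bc9, H2bc14, H2bc18 and H2bc21 had overlapping groups in each comparison.

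Of the H4 genes, H4c12 had the narrowest range of all members, with 10.65, 10.71 and 10.82 in KO+Mut, 10.46, 10.82 and 10.65 in KO+WT, 10.55, 10.77 and 10.68 in KO and 10.55, 10.69 and 10.74 in parental cells (log2). Its difference from KO was 0.06 in KO+Mut and -0.02 in KO+WT (SE 0.12); the 95% intervals were -0.21 to 0.32 and -0.29 to 0.24. H4c8 was lower in KO+Mut (2.21, 2.37 and 2.33) than in parental cells (2.83, 2.80 and 2.5) on every array, by -0.41 (SE 0.21, limma adjusted p = 0.501). H4c1, H4c2, H4c14 and H4c17 stayed below 4 on every array.

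The number of the replicate moved with the members in every group. Of the 21 members, 14 had their lowest value of the group on KO+Mut replicate 1, 14 on KO+WT replicate 1, 16 on KO replicate 1 and 13 on parental replicate 1. Over all genes the share with their lowest value on these arrays was 33.6%, 32.2%, 32.3% and 34%. The median deviation of a member from its group mean was -0.10, -0.28, -0.15 and -0.21 on the 4 arrays numbered 1, while that of all genes was 0.00 to 0.02. This order was not particular to the members. The mean of the DNA replication and S phase list was lowest on number 1 in each group. It read 7.93 in KO+Mut, 7.94 in KO+WT, 8.05 in KO and 8.08 in parental cells there. The lists of mitosis, histone chaperone and 2C-like genes had the same lowest array, whereas that of cell cycle inhibitors had it in no group. H1f5, a linker histone gene outside the rule, was likewise lowest on number 1 in each group, with 7.0 in KO+Mut, 6.92 in KO+WT, 7.61 in KO and 7.79 in parental cells. It is 1 of 9 histone genes read by an older name, whose mean did not have this order in 2 groups. That mean was 4.58, 4.55 and 4.94 in KO+Mut and 4.81, 4.92 and 4.76 in parental cells (replicates 1, 2 and 3). The labels do not say what the number stands for, and its part in the differences between groups was not tested beyond the fits with the number as a block.

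**Figure D3:**
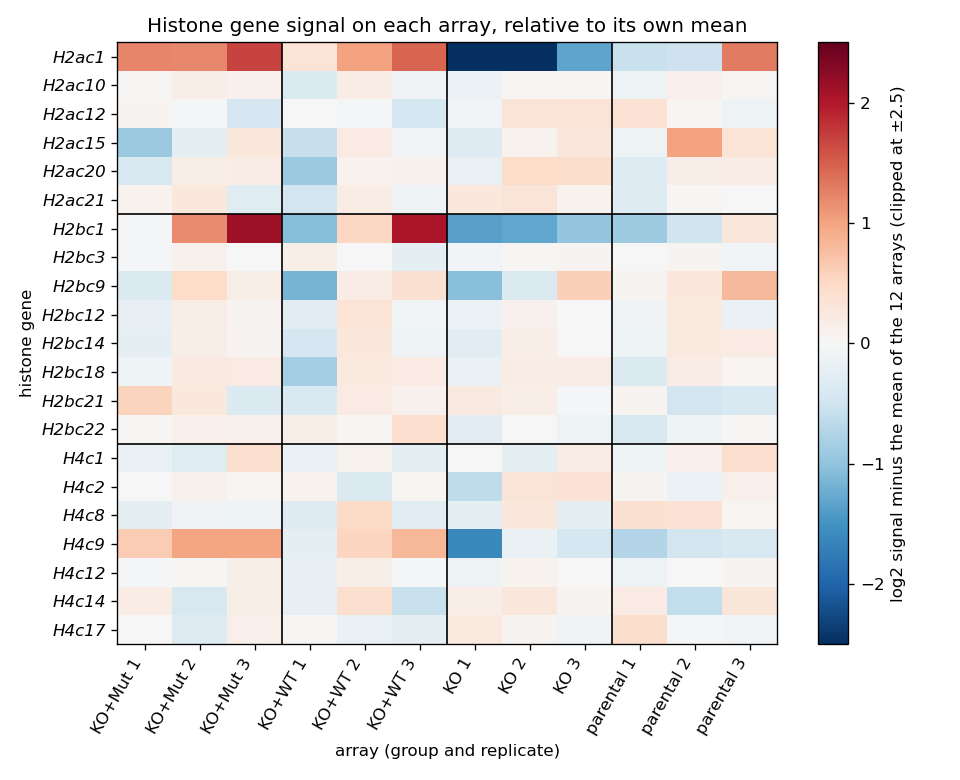
Signal of each histone gene (rows, by class) on each array (columns), as log2 signal minus the gene's own mean over the 12 arrays, with red above and blue below that mean and colours clipped at the ends of the scale. H2ac1 and H2bc1 are low on the 3 KO arrays, and 13 to 16 of the 21 genes have their group's lowest value on the array numbered 1.

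Mutant and wild-type add-back, the comparison matched for transfection and sorting, asked whether SUMO deficiency of the 2 proteins changes transcript levels. None of the members passed the threshold: 0 of 21 passed, and 0% of all genes passed (limma; 0 of 21 at an unadjusted p below 0.05, against 3.04% of all genes). Groups overlapped for all 21 members, where 6.68% of all genes did not overlap. H2ac1 differed by 0.44 (95% interval -0.66 to 1.54), H2bc1 by 0.58 (-0.83 to 1.99) and H4c9 by 0.50 (-0.22 to 1.21), so that the intervals leave room for a change of more than 2-fold in each. The signs were positive for 18 of 21 members, with a median of 0.09, beside -0.01 over all genes. That median was -0.01 without KO+WT replicate 1 and 0.27 without KO+WT replicate 2. On the KO+WT side the array numbered 1 was the lowest of its group for 14 members, and without it the H2bc1 difference was -0.20.

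Set against parental cells, the add-backs had 0 of 21 members past the threshold, where 0.992% of all genes passed in KO+Mut (0.654% higher, 0.338% lower) and 0.55% in KO+WT (0.32% higher, 0.23% lower) (limma). At an unadjusted p below 0.05 there were 3 of 21 members in KO+Mut, against 11.5% of all genes, and 2 of 21 in KO+WT, against 10.7%, and these members were higher in the add-backs. H2ac1 was 1.30 higher in KO+Mut (SE 0.51, limma adjusted p = 0.338) and 0.86 higher in KO+WT (SE 0.51, 0.59). H4c9 was 1.40 higher in KO+Mut (SE 0.33, limma adjusted p = 0.0735) and 0.91 higher in KO+WT (SE 0.33, 0.337). With the replicate number as a block, H2ac1 and H4c9 were higher in KO+Mut (limma adjusted p = 0.0347 and 0.00878), and no member passed in KO+WT. These comparisons share the parental arrays with that of KO and parental cells. H2ac15 had the lowest difference of the 21 members between KO+Mut and parental cells, -0.70 (SE 0.33, limma adjusted p = 0.444).

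Probe sets that carry several symbols stand for histone genes without a probe set of their own, the H3 genes among them. They numbered 11 for H2A, 9 for H2B, 12 for H3 and 5 for H4, and 34 of the 37 had distinct values, since 6 formed 3 pairs of equal ones. Fitted with all 41345 probe sets, 1 of the 34 passed in KO+Mut against KO and 0 in each other comparison (limma). In KO+Mut against KO, 0.805% of all probe sets were higher and 0.0701% lower. At an unadjusted p below 0.05 there were 2 to 4 of 34 in each comparison. The share over all probe sets was not counted at that cut, and over the genes it was 3.04% to 12.5%. Over all probe sets 0.00967% were higher and 0.0653% lower in KO against parental cells, and 0.493% higher and 0.0484% lower in KO+WT against KO. Against parental cells 0.6% were higher and 0.196% lower in KO+Mut, and 0.305% higher and 0.109% lower in KO+WT. The set that passed is assigned to 3 H2B genes and read 6.28, 6.45 and 5.83 in KO+Mut, 5.28, 5.77 and 5.70 in KO+WT, 4.45, 4.82 and 5.13 in KO and 5.06, 5.38 and 4.96 in parental cells. It rose by 1.38 in KO+Mut over KO (SE 0.22, limma adjusted p = 0.0114), and every KO+Mut array was above all arrays of the other groups. The wild-type add-back difference was 0.78 (SE 0.22, limma adjusted p = 0.219). Over the 12 H3 sets the median difference from KO was 0.06 in KO+Mut and 0.01 in KO+WT, and KO differed from parental cells by a median of -0.07. Single H3 sets ranged from -0.24 to 0.93 in KO+Mut and from -0.42 to 0.20 in KO+WT against KO, and down to -0.80 in KO+WT against parental cells, none past the threshold. Mean signals of the H2A sets reached 12.23, and the highest signal of any probe set was 12.75.

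Another 9 histone genes and pseudogenes have an older name that starts with Hist but a current symbol outside the rule, among them the linker genes H1f1, H1f2, H1f3 and H1f5 and the testis linker gene H1f6. None of the 9 passed in any comparison (limma; 0 of 9 at an unadjusted p below 0.05 in each, against 3.04% to 12.5% of all genes). H1f6 differed by -0.33 in KO+Mut (SE 0.22) and by -0.36 in KO+WT (SE 0.22) from KO, and H1f5 by -0.58 in KO+WT (SE 0.34). H1f6 is a testis histone gene on chromosome 13 as well, and its add-back arrays overlapped the KO arrays. Its signal was 2.08 to 3.21 over the 12 arrays, below every array median, so it may be at background.

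The machinery around histone genes was read from lists. Of 34 genes for synthesis and end processing of histone mRNA, none passed in any comparison (limma). Among them are Slbp, which binds the stem-loop, and Npat, which activates histone transcription. At an unadjusted p below 0.05 there were 3 of 34 in KO against parental cells, where 6.94% of all genes lay. There were 6 in KO+Mut against KO, beside 12.5% of all genes, and 3 in KO+WT against KO, beside 12%. The smallest p in KO cells was that of the uridylyl transferase gene Tut7 (0.47, SE 0.11, limma adjusted p = 0.14). Their median difference from KO was -0.13 in KO+Mut and -0.12 in KO+WT, with 4 and 9 of 34 positive. Of 27 histone chaperone genes none passed either, and Atrx, which helps deposit H3.3, differed from KO by -0.35 in KO+Mut and -0.32 in KO+WT (limma adjusted p = 0.38 and 0.436). None of 17 variant histone genes passed, and H2az1, a variant H2A gene, differed by -0.65 in KO+Mut against parental cells (SE 0.27, limma adjusted p = 0.375).

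The 53 genes of DNA replication and S phase had a list mean of 7.93 to 8.19 in KO+Mut, 7.94 to 8.14 in KO+WT, 8.05 to 8.35 in KO and 8.08 to 8.31 in parental cells (log2). None of them passed, and their median difference from KO was -0.13 in both add-backs, with 10 and 4 of 53 positive in KO+Mut and KO+WT, beside a median of -0.01 and 0.00 over all genes. The 29 genes of G2 and mitosis had medians of -0.14 in KO+Mut and -0.13 in KO+WT against KO, and none passed. Of 13 cell cycle inhibitor genes Cdkn2c rose in KO+Mut over KO, by 0.92 (SE 0.16, limma adjusted p = 0.0131), with 4.02, 4.18 and 4.03 in KO+Mut against 3.35, 2.90 and 3.22 in KO. The part of these shifts in the histone values was not tested.

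Markers of 2C-like cells, the rare stem cells that resemble 2-cell embryos, rose in the add-backs over both other groups. Of 13 such markers 10 rose in KO+Mut and 8 in KO+WT over KO, and 10 in KO+Mut and 8 in KO+WT over parental cells, while 1 fell in KO against parental cells. H2ac1 did not pass in either add-back against parental cells in the fit without the block, where the median difference of the 13 markers was 4.40 in KO+Mut and 3.74 in KO+WT. The list mean was 7.03 to 7.80 in KO+Mut, 6.04 to 7.45 in KO+WT, 3.13 to 3.33 in KO and 3.86 to 4.40 in parental cells. Of 8 male germ line markers 2, Dazl and Ddx4, rose in both add-backs over KO and fell in KO against parental cells, and the other 6 did not pass in these comparisons. Only 6 of the 8 in KO+Mut and 4 in KO+WT had a positive difference from KO. Stra8 had 7.23, 6.96 and 7.03 in KO+Mut and 7.5, 6.88 and 6.90 in KO+WT, against 8.13, 7.61 and 7.87 in KO cells, which is the opposite order. Dazl had 6.91, 7.12 and 7.19 in KO+Mut, 6.77, 6.89 and 7.25 in KO+WT, 5.31, 5.02 and 5.49 in KO and 6.39, 6.70 and 6.78 in parental cells. The list mean of the germ line markers was 4.21 to 4.42 in KO+Mut, 4.16 to 4.25 in KO+WT, 3.88 to 3.96 in KO and 4.26 to 4.32 in parental cells. The part of either list in the H2ac1 values was not tested.

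**Figure D4:**
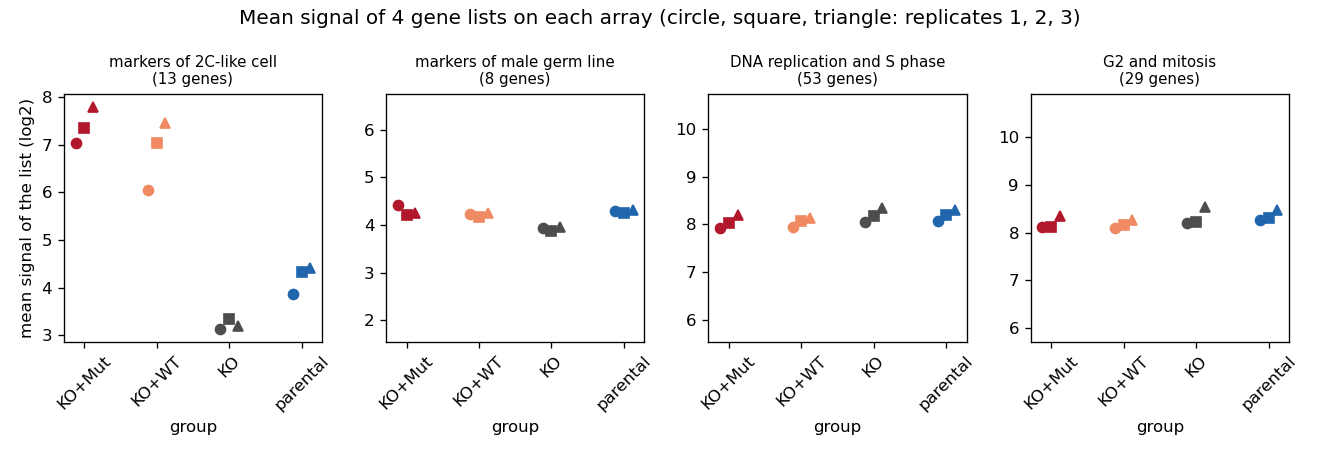
Mean signal (log2, y axis, the same span in each panel) of 4 gene lists on each array, by group (x axis). The 2C-like markers lie between 3.13 and 3.33 in KO and between 6.04 and 7.80 in the add-backs, while the DNA replication and mitosis lists stay within 1 unit over all arrays.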

How the data were processed

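Transcript levels of 12 samples were measured on Affymetrix arrays with biotin-labelled cDNA made with the WT Plus kit, per the labels' protocols. Each probe set has 1 deposited log2 signal an array, normalized by the authors with the Transcriptome Analysis Console, per the submitters' processing notes. The sources used here give neither its version nor the normalization method nor a genome build, and the log2 scale was inferred from the values' range. GEO's platform annotation gives 1 symbol to 23521 of the 41345 probe sets, several to 1814 and none to 16010, and the probe set of highest mean stood for each of 22180 genes. Entrez identifiers of 23328 probe sets were found in RefSeq's GRCm38.p6 gene table.

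Groups were compared with lmFit and eBayes of limma 3.58.1 (R 4.3.3), fitted to 1 mean per group over all 12 arrays, with two-sided p-values adjusted by Benjamini-Hochberg over the 22180 genes and a threshold of 0.05. The 6 comparisons are those of KO with parental cells, of each add-back with KO and with parental cells, and of the add-backs with each other. Only that of KO+WT with KO was tried on simulated data. Values are log2 differences with their limma SE. Named were the members past the threshold or, with fewer than 3, those of smallest p, those of extreme difference, the testis genes, and of each other list the members past the threshold or of smallest p. The members and lists were chosen with earlier results of these data known, and the list of histone genes by older name after the values were seen. Deviations from the group means were correlated between arrays of the same number (r for replicates 1, 2 and 3). For KO and parental cells r was 0.36, 0.15 and 0.42, and for the add-backs with each other 0.40, 0.21 and 0.47. With parental cells it was 0.33, 0.15 and 0.31 for KO+WT and 0.33, 0.13 and 0.36 for KO+Mut. With KO cells it was 0.31, 0.06 and 0.29 for KO+WT and 0.31, 0.08 and 0.36 for KO+Mut. A block for the number is 1 factor over all 12 arrays, so it applies to all 6 comparisons or to none. The labels do not say whether the numbers pair the arrays, so the block was kept as an alternative. Alternatives tried were array weights, a block for the replicate number, a second quantile normalization, centring on array medians, a filter at percentile 25 of the signal, robust variances with a trend, separate fits of 6 arrays, averaging a gene's probe sets, and dropping each array in turn. Figures were drawn with matplotlib 3.10.9 in Python 3.11.15.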

Additional observations from a re-analysis of the deposited data

How the results depend on the processing

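The rise of H2ac1 over KO in both add-backs was kept under each alternative tried, fits without 1 array included. In KO against parental cells 1 member was lower with the replicate block (H2ac1) and 1 with array weights, and 0 to 1 when an array was left out. In KO+WT against KO, 2 were higher with the replicate block (H4c9 added, limma adjusted p = 0.0276) and 1 whichever array was left out. In KO+Mut against KO, 1 was higher after repeated quantile normalization (H4c9 adjusted p = 0.0501) and 1 in the fit of the 6 arrays alone (0.0683), and 1 to 2 when an array was left out; with the replicate block and with array weights H2bc1 also passed (0.0163 and 0.0427). In KO+Mut against parental cells 2 were higher with the replicate block and 1 each in the fit of 6 arrays and with array weights, and 0 when an array was left out. The replicate block changed no other call of a named member. Medians over the members moved by less than the spread between arrays under each alternative. Between the add-backs, differences that did not pass changed sign when an array was left out, for H2bc1 (-0.20 to 1.36), H2bc18 (-0.12 to 0.43) and H2ac15 (-0.43 to 0.18; 0.04 without KO+WT replicate 2). Low signals limit H2bc1 and the dim H4 genes, since no detection calls were used.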

Other observations

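The 10 nearest protein-coding genes around H2ac1 that were tested and are no histone genes were read beside it. Among them are the sodium and phosphate transporter genes Slc17a1 to Slc17a4 and Gmnn, whose product geminin holds back DNA replication licensing. They differed from KO by -0.24 to 0.40 in KO+Mut and by -0.32 to 0.34 in KO+WT, and KO differed from parental cells by -0.26 to 0.31. None passed the threshold (limma; lowest adjusted p = 0.3). Around H4c9 the corresponding genes, among them 5 of the Vmn1r family of vomeronasal receptors, differed by -0.07 to 0.27 in KO+Mut and by -0.24 to 0.09 in KO+WT, and none passed (lowest adjusted p = 0.575). These genes were chosen after the values of H2ac1 and H4c9 were seen.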
